A study of Homo sapiens with 6 samples.

Results

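The extracellular matrix genes examined here are the collagens, laminin chains, fibrillins, fibulins and lysyl oxidases named by symbol pattern, together with 10 matrix genes listed by name (FN1, TNC, SPARC, POSTN, THBS2, LTBP1, LTBP2, NID1, HSPG2 and VCAN). Genes were taken where the array's annotation gave a probe set exactly 1 gene symbol, which found 75 matrix genes of 19775 genes on the array, measured by 192 probe sets. All RNA came from MDA-MB-231, an established human breast cancer line that lacks the estrogen receptor. Cells were transfected in 2 rounds over 6 days with a control siRNA (3 arrays) or an siRNA against LSD1 (3 arrays), and the arrays of each group are stated to be biological replicates. Both groups were therefore transfected cells, and no untransfected cells were analysed here. LSD1 is the histone demethylase that the KDM1A gene encodes, and the comparison asks which matrix transcripts differ once it is depleted.

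Collagens are triple-helical proteins: fibrillar types form the fibres of connective tissue, while type IV forms the sheet of basement membranes. Laminins are cross-shaped trimers of an alpha, a beta and a gamma chain that tie basement membranes to integrins on the cell. Fibronectin, tenascin-C and the thrombospondins are glycoproteins that cells lay down on this scaffold, and lysyl oxidases cross-link it. Carcinoma cells with mesenchymal features can make many of these proteins themselves, although stromal fibroblasts make most of the matrix of a breast tumour.

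KDM1A was measured first, as a check of the labels. Its signal was 2540.1, 2493 and 2295 in the control arrays and 291, 184 and 228 in the LSD1 siRNA arrays. The KDM1A log2 change was -3.32 (standard error, SE, 0.13; limma adjusted p = 1.46e-08), and an exact two-sided permutation test gave p = 0.1, which is the lowest possible with 3 arrays on each side. The arrays carry no read depth, so their number limits the precision. The 3' to 5' signal ratio of control probe sets is a sign of RNA quality. For ACTB it was 1.74 on control array 1 and between 1.33 and 1.43 on the other 5. For GAPDH it was 1.03 on control array 1 and between 0.92 and 0.98 on the others. Genes were tested on log2(signal + 15) where their mean passed a low-signal filter, at an adjusted p of 0.05 over all 13822 genes tested; dim genes therefore have understated changes.

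Most of the matrix genes that passed the test were higher with LSD1 siRNA. Of the 54 that passed the filter, 20 rose and 5 fell with LSD1 siRNA, and 29 did not pass the test (limma, Benjamini-Hochberg adjustment). Over all genes tested 41.0% passed, 19.8% higher and 21.3% lower, while among the 54 matrix genes 46.3% passed, 37.0% higher and 9.26% lower. The share that passed was thus near that of all genes, and the split between directions was not. The median log2 change of the 54 was 0.22, against -0.02 over all genes tested. These medians and shares are descriptions with no test of the list. The matrix genes were chosen with earlier results of these data known, so the split is not independent evidence about them.

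The upward calls lay mostly outside the collagens. Of 27 collagen genes tested, 6 rose (22.2%) and 4 fell (14.8%), with a median log2 change of 0.01. Over all genes tested, 19.8% rose and 21.3% fell. The 37.0% of collagens that passed was near the 41.0% of all genes tested. Of the other 27 matrix genes tested, 14 rose (51.9%) and 1 fell (3.70%), with a median of 0.26. The 4 collagens that fell were COL18A1, COL8A1, COL6A1 and COL13A1, and the other gene that fell was LOXL3. Changes of at least 2-fold were found in 4 matrix genes, all higher (TNC, COL15A1, LTBP2 and LOX). Over all genes tested, 3.23% passed with at least a 2-fold rise and 1.40% with at least a 2-fold fall. Control and LSD1 siRNA arrays were fully separated for 29 of the 54 matrix genes (53.7%), 21 of them higher and 8 lower, where the share over all genes was 50.4%, with 24.2% higher and 26.2% lower.

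**Figure D1:**
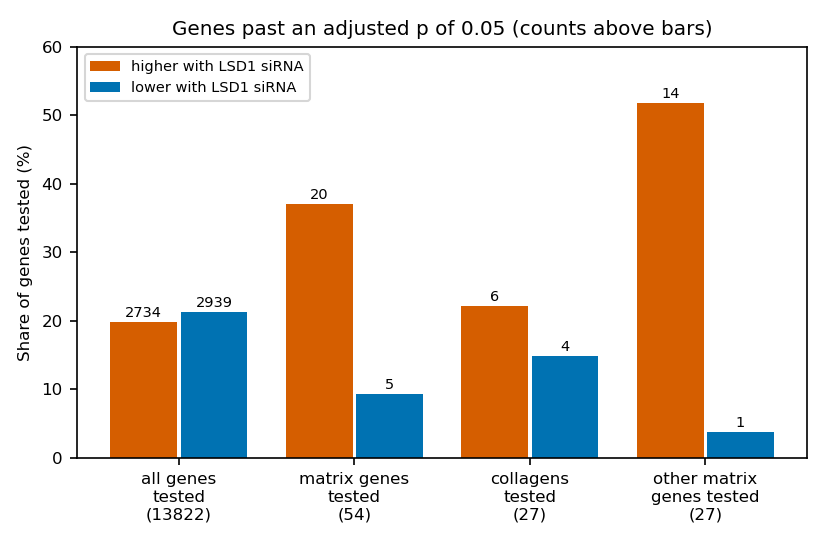
Share of genes tested (%) that passed an adjusted p of 0.05, higher (orange) or lower (blue) with LSD1 siRNA, for all 13822 genes, the 54 matrix genes, the 27 collagens and the 27 other matrix genes, with counts above the bars. The matrix genes had 20 higher and 5 lower, and outside the collagens 14 were higher and 1 lower.

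TNC, which encodes the adhesion-modulating glycoprotein tenascin-C, had the largest rise of the matrix genes tested. Its signal was 723, 709 and 759.9 in the control arrays and 2247, 2155 and 2002 in the LSD1 siRNA arrays. All LSD1 siRNA arrays thus lay well above the control arrays, a 2.92-fold ratio of mean signals and a log2 change of 1.53 (SE 0.07, limma adjusted p = 4.78e-08). FN1, which encodes fibronectin, the integrin-binding glycoprotein on which many other matrix proteins assemble, gave 5649, 5249 and 5167 in the control arrays and 9662, 9397 and 9317 with LSD1 siRNA. The FN1 groups were separated by a gap many times the spread within either, with a log2 change of 0.82 (SE 0.06, limma adjusted p = 9.29e-07).

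THBS2, which encodes thrombospondin 2, an inhibitor of blood vessel growth, rose by 0.41, from 956 ± 69.6 to 1272 ± 29.6 (SD, n = 3). SPARC, a collagen-binding glycoprotein gene, was dim, with signals of 8.69, 34.4 and 16.1 in the control arrays and 68.4, 61.6 and 23.7 with LSD1 siRNA. Its groups overlapped and its value of 0.92 did not pass (limma adjusted p = 0.0999), although it passed at 1.27 without LSD1 siRNA replicate 3 (adjusted p = 0.0381). VCAN, the versican proteoglycan gene, did not pass either, at -0.21 with a 95% interval from -0.82 to 0.39. POSTN, the periostin gene, fell below the filter. Its brightest probe set gave 2.75, 4.58 and 2.03 in the control arrays and 35.8, 10.8 and 26.4 with LSD1 siRNA. Those values did not overlap, and without any filter POSTN passed at 1.06 (adjusted p = 0.0286), but all 6 lie near the low end of the array's range.

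**Figure D2:**
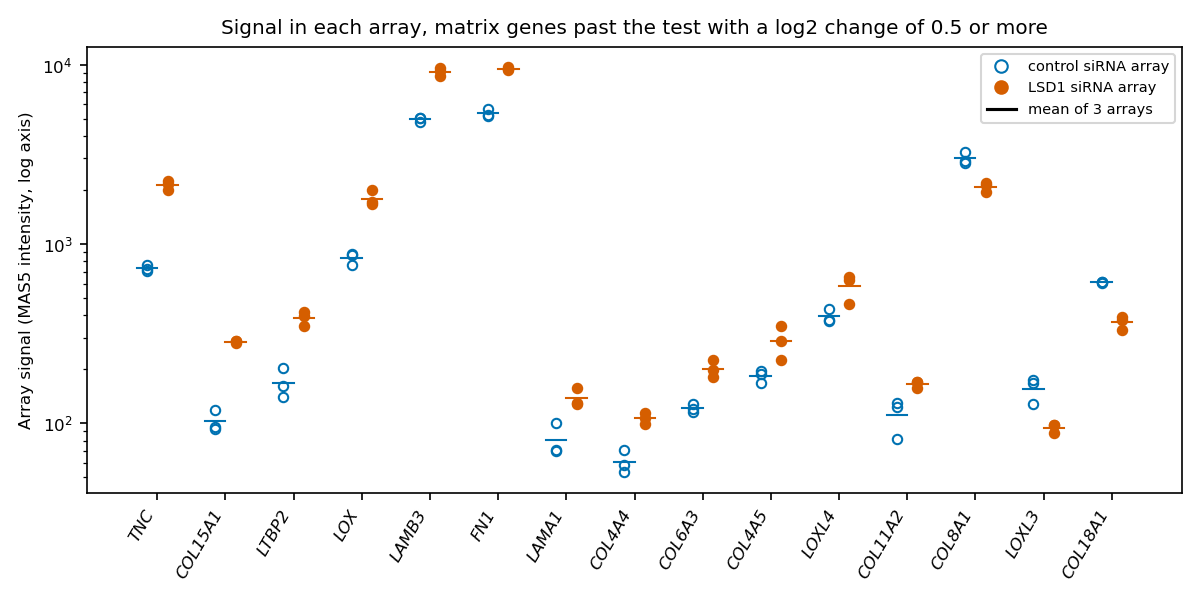
Array signal (MAS5 intensity, log axis) of the 15 matrix genes past the test with a log2 change of 0.5 or more in either direction, in each control siRNA array (open blue) and LSD1 siRNA array (orange), with group means as lines. Control and LSD1 siRNA arrays were fully separated for all 15, and COL8A1, LOXL3 and COL18A1 were the 3 that were lower.

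Laminin chain genes rose in 5 of the 9 tested (55.6%) and none fell, where 19.8% of all genes tested rose and 21.3% fell. LAMB3, the beta chain of the laminin that anchors epithelial cells through hemidesmosomes, gave 5038, 5063 and 4813 in the control arrays and 8597, 9545 and 9244 with LSD1 siRNA. The separation was a log2 change of 0.87 (SE 0.06, limma adjusted p = 7.69e-07). LAMB3's partner chains were not analysed here. LAMC1, the gamma chain of most basement membrane laminins, went from 6637, 8123 and 7682 to 10537, 9452 and 11054. Every LSD1 siRNA array was above every control array, a log2 change of 0.47 (limma adjusted p = 0.000781). LAMB2, the beta chain of mature basement membranes, rose by 0.49, from 822 ± 97.1 to 1156 ± 44.6 (SD, n = 3).

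The other beta chain and the alpha chains showed smaller or dimmer differences. LAMB1 rose by 0.22 but did not pass without control siRNA replicate 1 or 2 or LSD1 siRNA replicate 2 or 3 (adjusted p between 0.0651 and 0.0886). LAMA5, an alpha chain broadly made by epithelia, did not pass at 0.22 (limma adjusted p = 0.0677). Without control siRNA replicate 1, LAMA5 was at 0.33 with an adjusted p of 0.00475. That array had the highest ACTB ratio, and LAMB1 did not pass without it. LAMA1, the alpha chain of embryonic basement membranes, rose by 0.69 from a dim level of 80.7 ± 17.2 to 139 ± 16.1 (SD, n = 3), and did not pass without control siRNA replicate 2 (adjusted p = 0.0528) or LSD1 siRNA replicate 3 (adjusted p = 0.0748). LAMA2, LAMB4 and LAMC3 did not pass, with values between -0.34 and 0.16, and LAMA4 was below the filter.

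HSPG2 and NID1 encode proteins that link laminin to the type IV collagen sheet. HSPG2, the perlecan gene, gave 508, 371 and 431 in the control arrays and 640.2, 582 and 493 with LSD1 siRNA, so the groups overlapped. Its rise of 0.38 passed narrowly (limma adjusted p = 0.0361) and was lost without control siRNA replicate 2 or 3 or LSD1 siRNA replicate 1 or 2 (adjusted p between 0.0685 and 0.138). As the mean of its probe sets HSPG2 was at -0.17 and did not pass (adjusted p = 0.587). NID1, the nidogen-1 gene, had signals between 2.70 and 46.4 over the 6 arrays and was below the filter. NID2, the nidogen-2 gene, which the symbol rule does not take in, was tested and did not pass at 0.42 (95% interval from -0.35 to 1.19, limma adjusted p = 0.380).

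The chains of type IV collagen moved unequally. COL4A1 and COL4A2 encode the chains found together in nearly all basement membranes. COL4A1 gave 3319, 3431 and 3172 in the control arrays and 3335, 2768 and 2631 with LSD1 siRNA, and COL4A2 gave 3945, 3974 and 3826 against 3815, 3637 and 3499. The COL4A1 arrays overlapped, and neither gene passed, with COL4A1 at -0.19 (limma adjusted p = 0.0949) and COL4A2 at -0.10 (95% interval from -0.23 to 0.03). Without LSD1 siRNA replicate 1, COL4A1 was at -0.29 and passed (adjusted p = 0.00779).

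COL4A4 and COL4A5, chains of the type IV networks of kidney and other specialised basement membranes, rose from low levels. COL4A5 went from 196, 169 and 189 to 347, 227 and 289, with every LSD1 siRNA array above the control arrays. The COL4A5 log2 change was 0.58 (limma adjusted p = 0.0123), and it did not pass without LSD1 siRNA replicate 1 (adjusted p = 0.0624). COL4A4 went from 53.1, 58.4 and 71.2 to 114, 107 and 99.0, a change of 0.69 (limma adjusted p = 0.0221). It did not pass without control siRNA replicate 1 or 2 or LSD1 siRNA replicate 1 or 2 (adjusted p between 0.0510 and 0.0770). COL4A3 did not pass, at 0.35, and COL4A6 was below the filter.

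These 6 genes lie in the genome as 3 head-to-head pairs, each pair reading outward from a shared stretch. Of the 6, COL4A4 and COL4A5 passed, COL4A1, COL4A2 and COL4A3 did not, and COL4A6 was below the filter. Differences between pairs were not tested. The stretches are shown because the members of a pair share them. They come from RefSeq (GRCh38.p14, plus strand), with matches to the CCAAT box (CCAAT), the GC box (GGGCGG) and the E2 box (CAGGTG) in capitals, on either strand. The COL4A1 and COL4A2 starts are 126 bases apart, and all of it is printed (chr13:110307158-110307283). For COL4A4 with COL4A3 (418 bases apart) and COL4A6 with COL4A5 (379 bases apart), the part that both promoter windows hold is printed (chr2:227164374-227164455 and chrX:108439588-108439708).
COL4A1 and COL4A2: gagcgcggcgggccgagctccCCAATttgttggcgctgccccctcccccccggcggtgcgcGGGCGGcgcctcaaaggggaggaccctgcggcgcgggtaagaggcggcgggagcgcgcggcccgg
COL4A4 and COL4A3: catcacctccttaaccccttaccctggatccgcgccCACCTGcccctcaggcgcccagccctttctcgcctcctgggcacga
COL4A6 and COL4A5: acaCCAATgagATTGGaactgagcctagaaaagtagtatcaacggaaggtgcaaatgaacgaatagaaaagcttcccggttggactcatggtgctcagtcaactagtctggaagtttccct
The COL4A1 and COL4A2 stretch holds 1 CCAAT box and 1 GC box, the COL4A4 and COL4A3 stretch 1 E2 box, and the COL4A6 and COL4A5 stretch 2 CCAAT boxes. A match is a description of the letters and not a binding site.

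**Figure D3:**
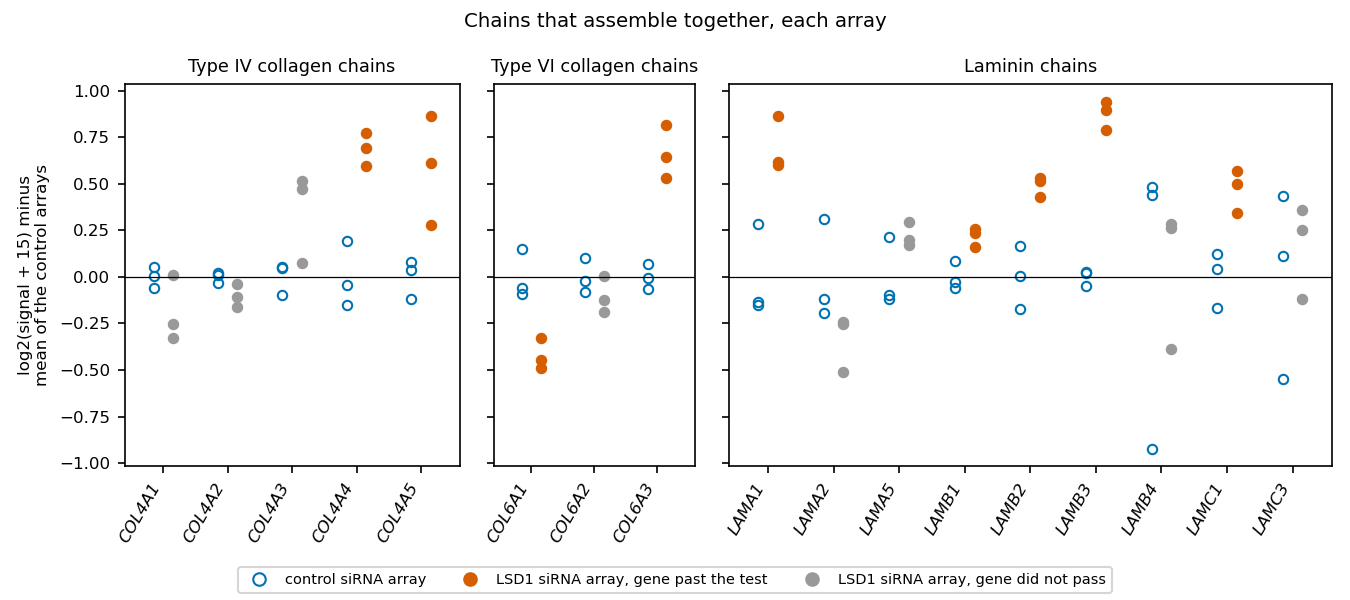
Value of each array on the log2(signal + 15) scale, minus the mean of the control arrays, for the tested chains of type IV collagen, type VI collagen and laminin; open blue points are control siRNA arrays, and LSD1 siRNA arrays are orange where the gene passed the test and grey where it did not. COL4A4 and COL4A5 were higher while COL4A1 and COL4A2 did not pass, and COL6A3 was higher while COL6A1 was lower.

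Other network and filament collagens included both directions. COL8A1, a short-chain network collagen of vessel walls and the cornea, fell from 2903, 2832 and 3250.4 to 2179, 2142 and 1945. No LSD1 siRNA array reached the control range, a log2 change of -0.52 (SE 0.07, limma adjusted p = 0.000147). COL10A1, a related short-chain collagen of cartilage, did not pass at -0.58 (limma adjusted p = 0.365). The chains of type VI collagen, which assemble with each other into beaded filaments, were not changed alike. COL6A1 fell from 1512, 1305 and 1277 to 964, 1079 and 994, a change of -0.42 (limma adjusted p = 0.00158). Only that set of the 5 COL6A1 sets above the filter passed, 2 of the others were at 0.064 and 0.13, and the mean of all sets did not pass (-0.17, adjusted p = 0.498). COL6A3 rose from 120.3, 128 and 115 to 224, 198 and 181, a change of 0.66 (limma adjusted p = 0.00493), and it has 1 probe set. Neither gene's groups overlapped on these sets. COL6A2 did not pass, at -0.10 with a 95% interval from -0.40 to 0.19. COL7A1, the anchoring fibril collagen gene, was at 0.02 with an interval from -0.16 to 0.21.

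The related multiplexin genes COL15A1 and COL18A1, both of the basement membrane zone, changed in opposite directions. COL15A1 went from 93.1, 95.6 and 118 to 286, 280.2 and 288, a 2.78-fold ratio and a log2 change of 1.36 (SE 0.15, limma adjusted p = 2.45e-05). COL18A1, whose protein releases endostatin, went from 617, 602 and 612 to 392, 378 and 329, a change of -0.72 (SE 0.10, limma adjusted p = 0.000123). Neither gene had overlapping groups. A second COL18A1 probe set gave 299 ± 37.0 and 319.5 ± 35.6 (SD, n = 3), which at 0.09 did not pass (limma adjusted p = 0.630). The fall thus rests on 1 of 2 probe sets, and COL15A1 has 1. COL13A1, a transmembrane collagen at cell adhesions, fell from 8409 ± 237 to 6535 ± 229 (SD, n = 3), or -0.36 on the log2 scale (limma adjusted p = 0.000334).

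Few fibrillar and FACIT collagens, the latter attached to fibril surfaces, passed the test. COL5A1, which nucleates type I fibrils, gave 828, 827 and 828 in the control arrays and 1015, 936 and 989.7 with LSD1 siRNA, a rise of 0.24 (limma adjusted p = 0.0202). It did not pass without LSD1 siRNA replicate 1 (adjusted p = 0.0721) or 3 (adjusted p = 0.0624), while its other 2 probe sets passed at 0.48 and 0.77. COL11A2 rose by 0.53 (limma adjusted p = 0.0463) and did not pass without control siRNA replicate 1 or 2 or any single LSD1 siRNA replicate (adjusted p between 0.0525 and 0.145). Nor did it pass with no filter, quantile normalization, no intensity trend, the replicate block or the mean of sets (adjusted p between 0.0513 and 0.545), or when every probe set was tested (adjusted p = 0.0510). COL1A1, a main chain of type I collagen, was at -0.12 with a 95% interval from -0.39 to 0.14. COL1A2, COL5A2 and COL11A1 were dim and had values of 0.42, 0.56 and 0.51 that did not pass, and COL27A1 was at -0.01. None of the 6 FACIT collagens tested passed, where 41.0% of all genes tested did. COL12A1 had -0.22 (limma adjusted p = 0.0557). It passed without control siRNA replicate 2 (-0.27, adjusted p = 0.0450) or LSD1 siRNA replicate 1 (-0.30, adjusted p = 0.0116). COL9A2, COL16A1, COL20A1, COL21A1 and COL22A1 lay between -0.28 and 0.24. COL20A1, COL21A1 and COL22A1 were dim, with mean control signals of 37.4, 38.1 and 61.8. Their 95% intervals lay between -1.27 and 0.90, too wide to show that these genes did not change.

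**Figure D4:**
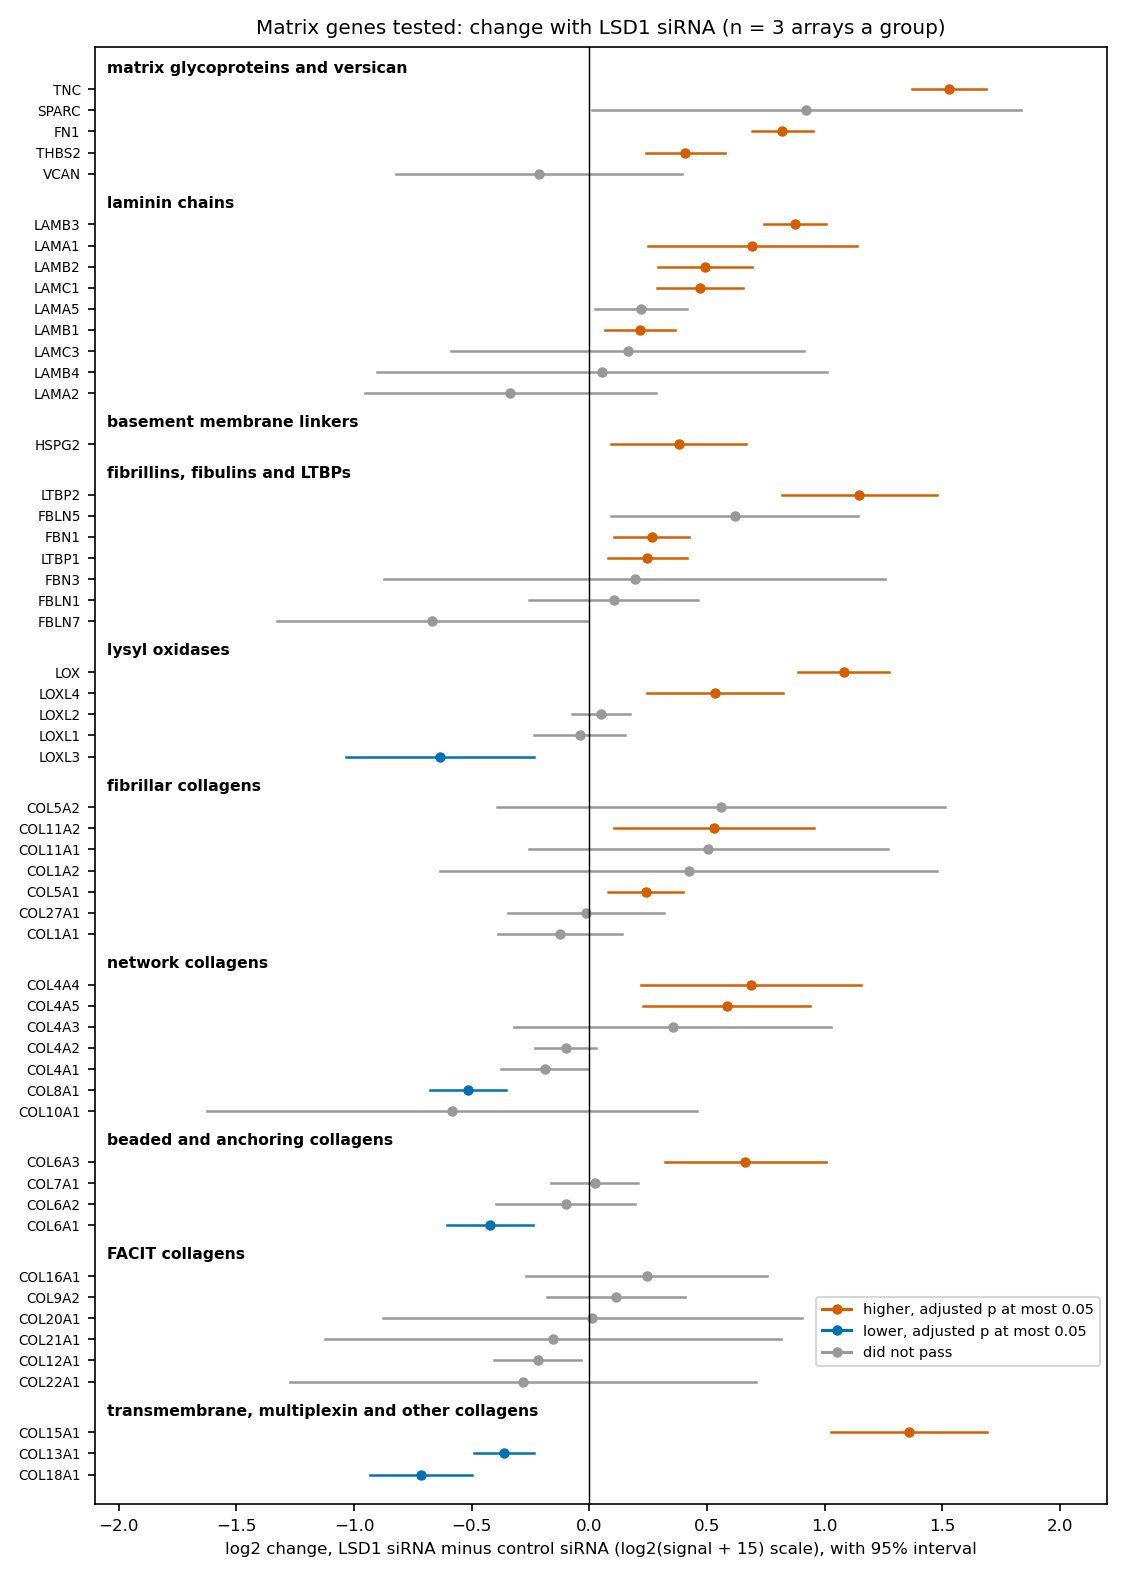
Log2 change with LSD1 siRNA and its 95% interval for the 54 matrix genes tested, grouped by family; the intervals are not adjusted for the number of genes, so a few that exclude 0 belong to genes that did not pass. TNC (1.53), COL15A1 (1.36), LTBP2 (1.15) and LOX (1.08) lie farthest to the right and COL18A1 (-0.72) farthest to the left.

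Lysyl oxidases, which cross-link collagen and elastin, also moved both ways. LOX went from 865, 764 and 881 in the control arrays to 1988, 1669 and 1707 with LSD1 siRNA. Its groups were far apart, with a 2.14-fold ratio and a log2 change of 1.08 (SE 0.09, limma adjusted p = 2.28e-06). LOXL4 went from 436, 374 and 374 to 650.2, 465 and 632, a rise of 0.53 (limma adjusted p = 0.00653), and its lowest LSD1 siRNA array still exceeded the control arrays. LOXL3 went from 173, 128 and 167 to 97.8, 97.2 and 88.5, a change of -0.63 (limma adjusted p = 0.0152), and did not pass without control siRNA replicate 1 (adjusted p = 0.0555). LOXL1 was at -0.04 (95% interval from -0.23 to 0.15) and LOXL2 at 0.05 (from -0.07 to 0.17). A dimmer LOXL2 probe set passed at 0.52, from 272 ± 32.7 to 395 ± 47.6 (SD, n = 3; limma adjusted p = 0.00888), so LOXL2's probe sets disagree.

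Fibrillins build microfibrils, and LTBPs hold latent TGF-beta in the matrix. Of the 7 fibrillin, fibulin and LTBP genes tested among those the symbol rule takes in, 3 rose (42.9%, against 19.8% of all genes tested) and none fell. LTBP3 (-0.13) and LTBP4 (-0.39), which the rule does not take in, were tested and did not pass (limma adjusted p = 0.653 and 0.169). LTBP2, the relative of the latent TGF-beta binding proteins that resides on fibrillin microfibrils, went from 139, 162 and 202 to 349.8, 395 and 416. The groups did not overlap, with a 2.30-fold ratio and a log2 change of 1.15 (SE 0.15, limma adjusted p = 8.34e-05). A second LTBP2 set above the filter did not pass, at 0.41 (limma adjusted p = 0.268), so the 2.30-fold rise rests on 1 of 2 sets, while the mean of both passed at 0.78 (adjusted p = 0.00131). FBN1, the main fibrillin gene, rose by 0.26 and LTBP1, which binds latent TGF-beta itself, by 0.25. FBN1 did not pass without LSD1 siRNA replicate 1 (adjusted p = 0.0562), and LTBP1 did not pass without control siRNA replicate 1 or LSD1 siRNA replicate 2 or 3 (adjusted p between 0.0512 and 0.0921). FBLN5, an elastic fibre fibulin gene, was at 0.62 and FBLN7 at -0.67, and neither passed (limma adjusted p = 0.0588 and 0.0989). FBLN1 (0.10) and FBN3 (0.19) did not pass either. FBLN5 passed without control siRNA replicate 3, at 0.73 (adjusted p = 0.0477).

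Many matrix genes are measured by several probe sets, which gives a second reading from the same arrays. Of the 25 genes that passed, 14 had 2 or more probe sets above the filter, and for LOX, LAMC1 and COL5A1 all of those passed in the same direction. The 3 LOX sets were at 0.96, 1.08 and 1.19, and the 2 LAMC1 sets at 0.47 and 0.53. Neither COL11A2 set passed when every set was tested, and 1 of 5 passed for COL6A1 and 1 of 2 each for LTBP2, LTBP1 and LAMB1. For FN1, 5 of 7 sets passed, between 0.55 and 0.87, and the 2 that did not pass (0.18 and 0.36) had mean control signals of 34.1 and 40.2. None of the 25 had a probe set that passed in the opposite direction. The second TNC set above the filter was dim and gave -0.23 (limma adjusted p = 0.593), so the TNC rise rests on 1 bright set. Among genes whose brightest set did not pass, a COL27A1 set was at -0.49 (limma adjusted p = 0.0277) and an FBLN1 set at -1.25 (limma adjusted p = 0.0290), the latter against a brightest set at 0.10. Over every probe set above the filter, 17.0% passed higher and 17.4% lower, and of the 100 of matrix genes 30 passed higher and 9 lower.

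**Figure D5:**
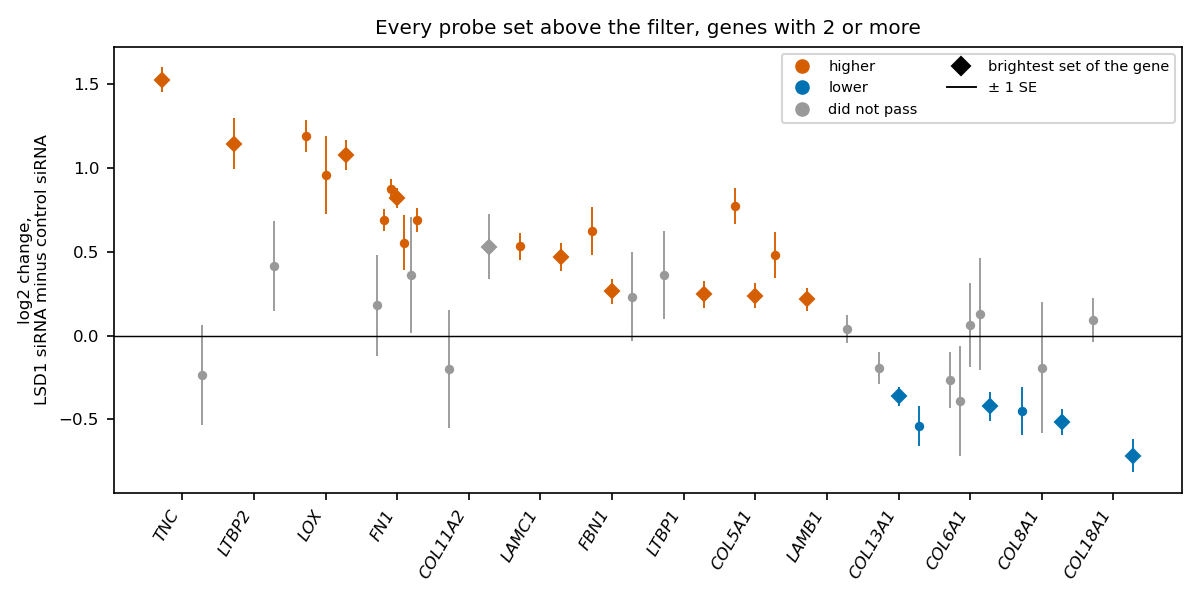
Log2 change with LSD1 siRNA, with 1 standard error either way, of every probe set above the filter for the 14 genes that passed and have 2 or more such sets; diamonds mark the set that represents the gene, and colour shows whether a set passed when all sets were tested. The 3 LOX sets lie between 0.96 and 1.19, while TNC and COL18A1 each rest on 1 set.

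The promoters of LAMB3, FN1, TNC and LOX are shown as examples, picked by hand among genes that rose with bright, non-overlapping groups. LAMC1, LAMB1, FBN1 and THBS2 also rose in that way and are not shown. Of the 75 matrix genes, 60 have 82 windows among the 35116 promoter windows of RefSeq (GRCh38.p14), each with 250 bases before a start and 50 after. The AP-1 motif (TGACTCA), the CCAAT box, the GC box and the E2 box were searched on both strands, and the stretches below show the 250 bases before a start, on the gene's own minus strand, with matches in capitals. The regions are chr9:115118158-115118407 for TNC, chr5:122078260-122078509 for LOX, chr2:215436069-215436318 for FN1 and chr1:209651375-209651624 for LAMB3, for which the start shown is the only one of 3 whose window holds the AP-1 motif.
TNC: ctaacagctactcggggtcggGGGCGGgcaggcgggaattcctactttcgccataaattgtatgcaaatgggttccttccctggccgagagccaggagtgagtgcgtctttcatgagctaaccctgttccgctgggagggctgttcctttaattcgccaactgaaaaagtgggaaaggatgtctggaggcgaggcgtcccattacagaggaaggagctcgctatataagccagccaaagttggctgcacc
LOX: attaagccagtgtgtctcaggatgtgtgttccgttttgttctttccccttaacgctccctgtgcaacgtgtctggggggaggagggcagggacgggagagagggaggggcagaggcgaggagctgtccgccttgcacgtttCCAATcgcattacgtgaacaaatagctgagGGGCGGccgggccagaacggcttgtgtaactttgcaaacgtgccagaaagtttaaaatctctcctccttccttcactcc
FN1: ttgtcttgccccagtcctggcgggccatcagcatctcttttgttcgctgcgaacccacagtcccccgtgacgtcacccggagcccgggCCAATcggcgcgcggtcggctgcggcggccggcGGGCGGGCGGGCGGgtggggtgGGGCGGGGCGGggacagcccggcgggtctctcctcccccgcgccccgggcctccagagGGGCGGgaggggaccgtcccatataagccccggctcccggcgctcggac
LAMB3: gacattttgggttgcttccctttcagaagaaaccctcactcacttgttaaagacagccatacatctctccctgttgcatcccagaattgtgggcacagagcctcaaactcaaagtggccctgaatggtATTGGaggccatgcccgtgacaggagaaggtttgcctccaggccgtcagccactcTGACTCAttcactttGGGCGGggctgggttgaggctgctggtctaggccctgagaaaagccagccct
TNC holds 1 GC box, LOX 1 CCAAT box and 1 GC box, FN1 1 CCAAT box and 6 GC boxes, some overlapping, and LAMB3 1 of each of these with the AP-1 motif. Over all windows the GC box was found in 45.0%, the CCAAT box in 34.6%, the E2 box in 20.6% and the AP-1 motif in 4.95%. In the 82 windows of matrix genes the shares were 58.5%, 26.8%, 14.6% and 2.44%. These shares are per window, while the counts by gene that follow take a match in any window of a gene, so they are not comparable. Of the 19 genes that rose and have a window, 13 hold a GC box and 6 a CCAAT box. An E2 box is held by 4 and the AP-1 motif by 1, LAMB3. The E2 box matches of LOX and LAMB3 lie outside the stretches printed. Of the 3 that fell and have a window, 2 hold a GC box and 1 an E2 box. The overlap of windows from alternative starts means that these counts are not independent.

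Other genes of matrix assembly were taken from 4 lists, which were also chosen with earlier results of these data known. Of 22 collagen processing genes tested, 9 rose (40.9%) and 3 fell (13.6%), with a median log2 change of 0.13, where 19.8% of all genes tested rose and 21.3% fell. PLOD2, a lysyl hydroxylase that prepares collagen for cross-linking, rose from 5080.0 ± 372 to 10278 ± 474 (SD, n = 3), or 1.02 on the log2 scale. PCOLCE2, an enhancer of procollagen cleavage, rose by 1.38, and the prolyl hydroxylase subunit genes P4HA2 and P4HA1 by 0.77 and 0.53. The 3 that fell were SERPINH1, the collagen chaperone gene (-0.34), CRTAP (-0.20) and the dim P3H3 (-1.13). P4HA3 was below the filter and passed when no filter was used, at 1.39 (limma adjusted p = 0.0262). SPARC is also on this list.

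Among 17 matrix receptor genes tested, 6 rose (35.3%) and 2 fell (11.8%), where 19.8% of all genes tested rose and 21.3% fell. The 47.1% that passed in either direction was near the 41.0% of all genes tested. ITGA2, a collagen-binding integrin chain gene, rose by 1.04, ITGA5, of the fibronectin receptor, by 0.88, and ITGA6, of laminin receptors, by 0.51. The syndecan gene SDC1 changed by -0.58. ITGB8 was below the filter and passed when no filter was used, at -0.90 (limma adjusted p = 0.0393). Of 24 other matrix glycoprotein and proteoglycan genes tested, 5 rose and none fell (limma; 0 lower also at an unadjusted p of 0.05). The 20.8% that rose was near the 19.8% of all genes tested. They were TGFBI (1.30), MFAP2 (1.40), ECM1 (0.94), CCN2 (0.49) and SRPX (0.37). Of the 6 genes of this list below the filter, LUM and ELN passed when no filter was used. They were at 2.71 (limma adjusted p = 5.78e-05) and 1.21 (limma adjusted p = 0.0100), from control signals of at most 4.58 and 11.2. The other genes of the list below the filter did not pass. Of 13 TGF-beta ligand, receptor and signalling genes tested, 7 rose (53.8%) and 3 fell (23.1%), against 19.8% and 21.3% of all genes tested. TGFBR1 (0.85), INHBA (1.03), TGFBR3 (0.62) and TGFBR2 (0.55) had the smallest p of those that rose. SMAD7 (0.97), BMP2 (0.72) and TGFB1 (0.32) rose as well, and BMP4 (-0.67), SMAD3 (-0.24) and SMAD4 (-0.28) fell.

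Markers of the line and of other cell types were read on the same arrays. VIM, a mesenchymal marker, lay between 25223 and 37928 over the 6 arrays, and ESR1, the estrogen receptor gene, between 48.0 and 95.2. The epithelial marker genes CDH1 (119 to 211) and EPCAM (1494 to 1843) were above the filter. Of these 4, none passed the test, and EGFR, another gene of the mesenchymal-like list, changed by -0.25 (limma adjusted p = 0.0191). Of 7 fibroblast markers, 3 were above the filter and none of these passed (limma; 0 also at an unadjusted p of 0.05). The summed signal of the 7 was between 169 and 219.6 in the control arrays and between 211 and 275 with LSD1 siRNA. PDGFRA, a defining marker, lay between 3.56 and 19.4 over the 6 arrays. LUM, the lumican gene, is named after its values were seen. Its brighter set gave 4.58, 0.595 and 0.518 in the control arrays and 98.3, 86.3 and 101 with LSD1 siRNA. FAP went the other way, from 33.0, 43.8 and 51.3 to 5.84, 3.05 and 5.25. LUM and FAP were below the filter, and without a filter LUM passed at 2.71 (adjusted p = 5.78e-05) and FAP at -1.54 (adjusted p = 0.00202). Of the 5 smooth muscle, 2 endothelial and 3 leukocyte markers tested none passed (limma; 0 also at an unadjusted p of 0.05), and the part of any such cells in the matrix values was not tested.

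The 21 matrix genes below the filter were 16 collagens with POSTN, NID1, FBLN2, FBN2 and LAMA4. Among the collagens were COL2A1 and COL3A1, the fibrillar collagens of cartilage and of soft connective tissue, and COL9A1, COL9A3 and COL14A1 of fibril surfaces. The rest were COL4A6, COL5A3, COL6A5, COL6A6, COL8A2, COL19A1, COL23A1, COL24A1, COL25A1, COL26A1 and COL28A1. Their brightest sets reached at most 47.2 on any array, the level of LAMA4 on control array 3. At such signals replicates of 1 group could lie far apart, as the LAMA4 values of 46.4, 6.88 and 47.2 in the control arrays show.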

How the data were processed

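RNA from 6 samples of MDA-MB-231 was hybridised to 1-colour Affymetrix arrays of 54675 probe sets. The authors deposited 1 intensity per probe set, made with GCOS and Affymetrix Expression Console 1.1 by MAS5, per the submitters' processing notes; the 2% trimmed mean was 500.1 on every array, so a shift common to all genes would not show, and MAS5's background step makes low intensities noisy. Detection calls were not used here. Names came from the platform annotation: 41097 probe sets had 1 symbol, 1801 had several and 11777 none, and 62 control sets were left out. A gene was represented by its probe set of highest mean, after sets with names ending in _x_at were set aside. Those sets could stand for a gene only if all its sets were of that kind. FN1 had brighter sets of that kind, which were thus passed over. A gene was tested where the mean of its chosen set exceeded the 40th percentile of all sets (a signal near 28.0).

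Tests used limma 3.58.1 in R 4.3.3 (lmFit, eBayes with trend, two-sided) on log2(signal + 15), 15 being the 25th percentile of all signals, with Benjamini-Hochberg adjustment over 13822 genes. The fit was tested on simulated data. Alternatives were other constants, other filters, quantile normalization, median centring, no trend, a replicate block, mean or every probe set, and leaving out each array. Every matrix gene is accounted for. Genes that passed the test are given with their log2 change, and many of them also with signals and an adjusted p. Beside them are described those whose chains or family they belong to. In the other lists, the 4 genes with the smallest p are named, and any further name was picked with its values in view. The matrix genes and lists were chosen with earlier results of these data known. Protein sequences were not analysed here.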

Additional observations from a re-analysis of the deposited data

How the results depend on the processing

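Under the 10 analytic alternatives and 6 fits that each left out 1 array, the number of matrix genes that rose lay between 14 and 22 and the number that fell between 4 and 7. The median log2 change of the matrix genes was 0.17 without a filter and 0.13 over every probe set, and between 0.20 and 0.27 when 1 array was left out. The same replicate numbers in the 2 groups did not pair the arrays (correlations of deviations 0.0107, -0.0119 and 0.0227), and with the replicate number as a block 20 rose and 6 fell. Of the 25 genes that passed, 15 passed in each of the 6 fits without 1 array. Direction reversed, without passing, for HSPG2 as the mean of its probe sets (-0.17), for single sets of COL6A1 (0.064 and 0.13), COL11A2 (-0.20), TNC (-0.23) and COL18A1 (0.095), and, passing, for 1 set of FBLN1 (-1.25). As means of all sets, LAMA1 (adjusted p = 0.339), COL6A1 (0.498), LOXL4 (0.413), LTBP1 (0.149), LAMB1 (0.190), COL4A5 (0.124) and COL11A2 (0.545) did not pass. The cause was not tested. Signals near the filter limit what can be seen of the 21 genes below it.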
